A study of Danio rerio with 4 samples.

Results

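Collagens are the chains that wind in threes into the triple helices of the extracellular matrix. In zebrafish larvae they build the sheath of the notochord, the cartilage of the head, the dermis and fin folds, and the sheet-like basement membranes under epithelia and around vessels and muscle. Fibrillar types form rope-like fibrils, and FACIT types (fibril-associated collagens with interrupted triple helices) sit on the fibril surface. Type IV forms the network of basement membranes. Several of the remaining types form beaded filaments, anchoring fibrils, short-chain networks or membrane-spanning proteins. The genes described here were those of the table of all genes whose symbol begins with col, a type number, the letter a and a chain number. The rule found 52 of 19143 genes. Of these, *col4a3bpa* and *col4a3bpb* encode the ceramide transfer protein, a lipid carrier of the cytosol that was named after a collagen partner, so 50 rows are collagen chains. They fall into 14 fibrillar chains (types I, II, V, XI, XXIV and XXVII), 9 basement membrane chains (types IV, XV and XVIII), 10 FACIT chains (types IX, XII, XIV, XVI and XIX) and 17 chains of other types (VI, VII, VIII, X, XVII and XXVIII).

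Libraries of mRNA were made from total RNA of whole larvae at 4 dpf (days post fertilization) and sequenced. They came from 2 pools of *nlrc3l* st73 homozygous mutants and from 2 pools of siblings, which were heterozygous or wild-type for st73. Each genotype had a pool of 10 larvae and a pool of 12. Before pooling, larvae had been sorted by staining with the vital dye neutral red, which shows microglia. Mutants without these cells and siblings with a normal set of them were picked. Per the paper's methods, a PCR and restriction enzyme assay then checked the genotypes before the libraries were made. The RNA-seq of the study was meant to describe the immune defects that follow loss of *nlrc3l*, a NOD-like receptor gene.

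The value used here for each gene is the authors' deposited mean of normalized counts over the libraries of both genotypes together. It has no spread between pools, and it does not separate mutants from siblings. No comparison of the genotypes was therefore made here, and nothing below says whether a collagen gene differed between them. A normalized count is a number of sequenced fragments after scaling for library size. It rises with the length of a transcript as well as with the number of transcripts, and no transcript length was used here, so the values of different genes give shares of the sequenced fragments and no order of transcript abundance. In a whole larva, fewer cells of a type and less RNA per cell cannot be told apart either.

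Over all genes of the table the mean normalized counts came to 8721330. The median gene had 126 and the lowest 9.18, and genes with fewer counts are not listed. Markers of 10 tissues served to check the label of whole larvae, and 38 of 40 had a row. The highest was the skin keratin gene *krt4* and the lowest the bone transcription factor gene *runx2b*, at 69336 and 9.20 mean normalized counts. *bglap* and *dpt* were not analysed here. All markers of cartilage, epidermis, skeletal muscle, endothelium, notochord, leukocytes, liver and lens had a row. The notochord marker *tbxta* was near the lower end, at 13.5 mean normalized counts. The other notochord markers, *shha* and *cav1*, lay above the median of all genes, and *cav1* was the highest of them at 1373. The mutated gene *nlrc3l* (ENSDARG00000099936) had a mean of 42.8 normalized counts over the 4 libraries.

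The 50 collagen chains summed to 79019.7 mean normalized counts, or 0.906% of those of all genes, while they were 0.261% of the rows. Their median was 305 mean normalized counts, against 126 over all genes. Of the 50 chains, 24, or 48%, lay among the 25% of all genes with most counts, and 10 lay among the 25% with fewest. At 1000 mean normalized counts or more stood 18 chains, or 36%, against 6.99% of all genes. Below 50 stood 11 chains, or 22%, against 27.1% of all genes. The excess of collagen chains over all genes thus lay at the high end, while at the low end their share was near that of all genes. How far the length of collagen transcripts sets these positions was not tested.

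**Figure D1:**
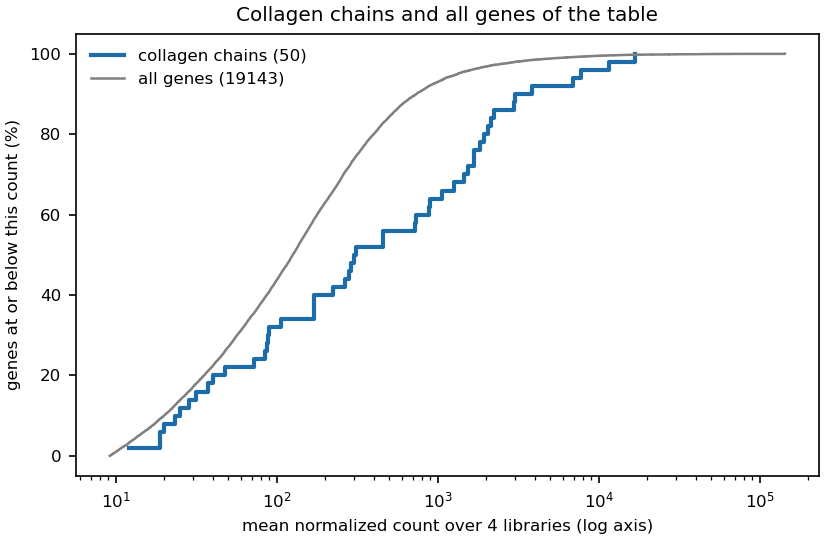
The percent of genes at or below each mean normalized count (log axis) is drawn for the 50 collagen chains and for all 19143 genes. The collagen line runs below that of all genes over most of the range, with medians of 305 and 126, and comes close to it at the low end.

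Few genes held most of the collagen counts. The 4 highest chains held 54.6% of them, the 10 highest 75.2% and the 20 highest 93.2%, which left 6.81% for the other 30 chains. The same split was not made for all genes of the table, so no contrast with them is drawn. By class, fibrillar chains held 71.4%, basement membrane chains 6.81%, FACIT chains 11.5% and the other types 10.4%, while they were 28%, 18%, 20% and 34% of the chains. By type, type I held 40.1% of the collagen counts and type II 18.3%, so the 5 chains of these types held 58.4%. Types IX and XI followed with 8.74% and 8.13%, and then types V and IV with 4.81% and 4.34%.

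**Figure D2:**
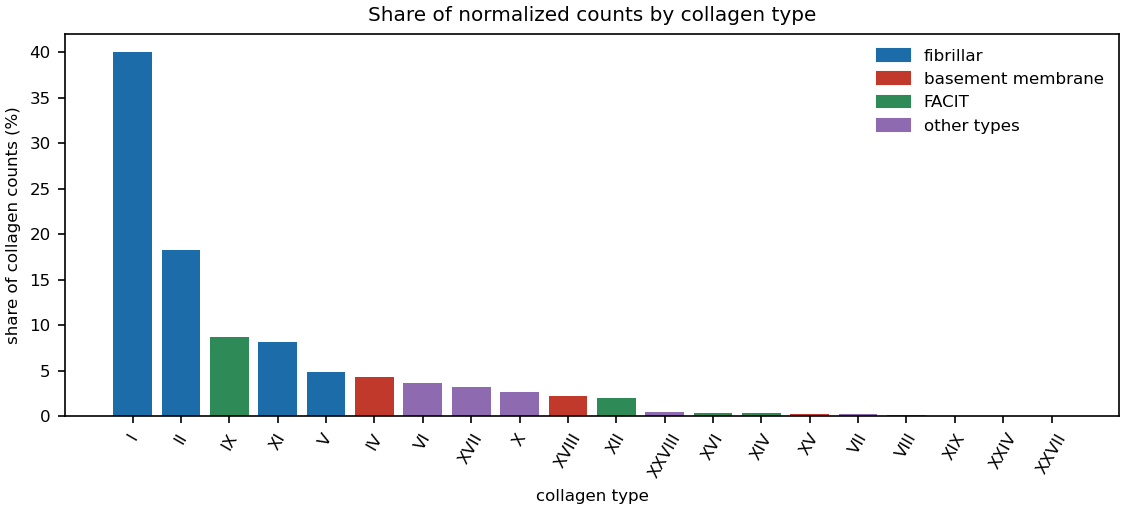
Each bar is the share of all collagen counts (%) held by the chains of 1 collagen type, coloured by class, over 20 types. Types I and II hold 58.4% together, and the types right of type XII hold under 0.5% each.

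Among fibrillar chains, those of type I, the main collagen of skin, bone and tendon, took 56.1% of the counts of their class. *col1a1a* (ENSDARG00000012405), the alpha 1 chain whose mutation causes a skeletal dysplasia in zebrafish, had a mean of 16895 normalized counts and was rank 42 of all genes. Its copy *col1a1b* had a mean of 7809.7, and *col1a2*, the alpha 2 chain, had 6948. Zebrafish type I collagen can hold both alpha 1 copies together with the alpha 2 chain. Both alpha 1 genes together had 3.56 times the normalized counts of *col1a2*, without correction for length.

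Type II is the fibrillar collagen of cartilage and of the notochord sheath, and it forms mixed fibrils with type XI on whose surface type IX sits. *col2a1a* (ENSDARG00000069093) had a mean of 11502 normalized counts, rank 77 of all genes, and its copy *col2a1b* had 2971. With *col1a1a* it was 1 of 2 collagen genes among the 100 genes with most counts. The type XI chains *col11a1a*, *col11a1b* and *col11a2* had means of 3868, 732 and 1825 normalized counts. Of the type IX chains, *col9a2* had 2998, *col9a1a* 1928, *col9a3* 1689 and *col9a1b* 290.0. The 9 chains of types II, IX and XI held 35.2% of the collagen counts, and 8 of them stood among the 25% of all genes with most counts, *col9a1b* being the exception.

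Type V chains join type I fibrils in small amounts and help to set their thickness. *col5a1* had a mean of 1452 normalized counts, *col5a2a* 1534, *col5a3b* 721 and *col5a2b* 89.9. The remaining fibrillar chains were close to the lower end of the table. *col24a1* had 23.2 mean normalized counts and *col27a1b*, linked to notochord and spine shape in zebrafish, had 12.1, the lowest of the 50 chains. The fibrillar class therefore held both the highest and the lowest collagen chain, with 11 of its 14 chains among the 25% of all genes with most counts and 2 among the 25% with fewest.

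**Figure D3:**
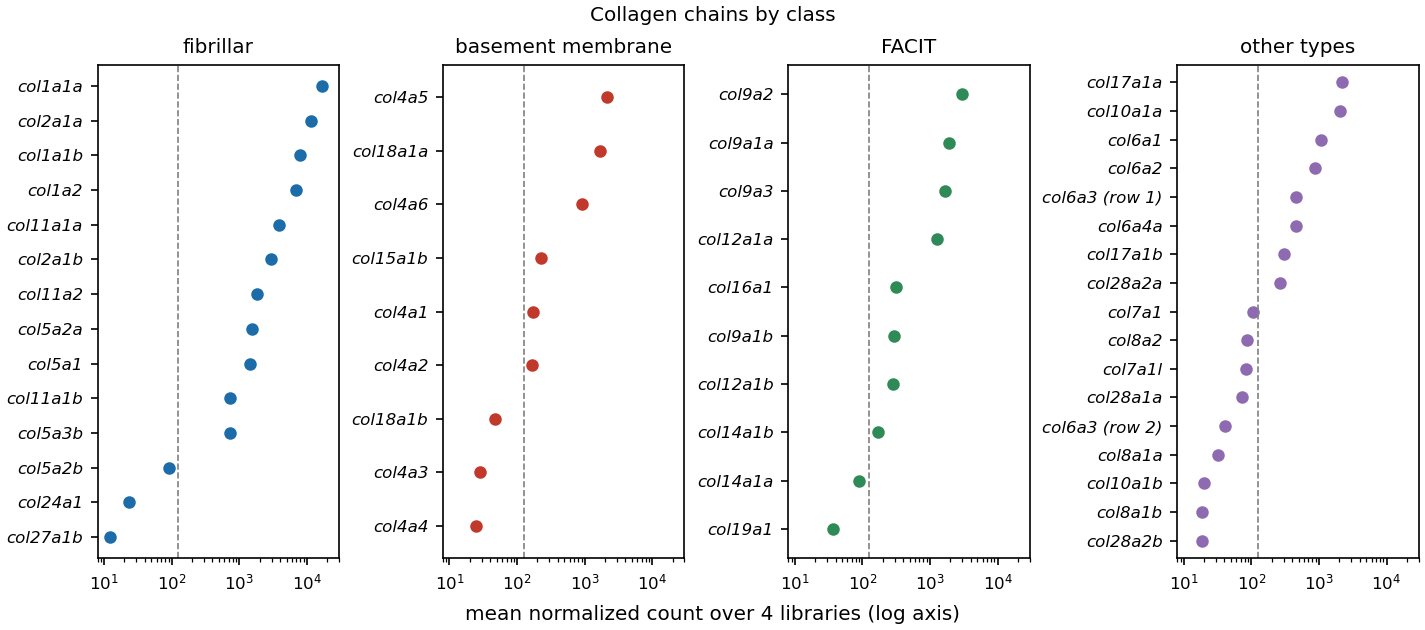
Each point is the mean normalized count (log axis) of 1 collagen chain over the 4 libraries, in 4 panels by class, with the median of all genes (126) as a dashed line. Of the chains, 33 lie above the line, with 11 of 14 fibrillar, 6 of 9 basement membrane, 8 of 10 FACIT and 8 of 17 chains of other types.

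Type IV is the collagen of all basement membranes, and its genes stand in pairs. In the RefSeq annotation of GRCz12tu, used for names and neighbours and not for coordinates, *col4a1* was next to *col4a2*, *col4a3* next to *col4a4* and *col4a5* next to *col4a6*, with no other protein-coding gene between them. The pair *col4a1* and *col4a2*, whose products make up the common type IV trimer of vertebrates, had means of 171 and 169 normalized counts. The pair *col4a3* and *col4a4*, known in mammals from the filter of the kidney, had 28.3 and 24.9. The pair *col4a5* and *col4a6* had 2133 and 900.2. *col4a5* is the gene that axons of the zebrafish eye need to find their layer in the optic tectum. The ratio of the first to the second gene was 1.01 in the first pair, 1.14 in the next and 2.37 in the last, and the last pair held 88.5% of the type IV counts. In ratio, the values within each pair were thus closer to each other than to those of the other pairs, on counts without correction for length. With means only, no error can be set on these ratios.

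The other basement membrane chains belong to types XV and XVIII, which carry sugar chains. Endostatin is a fragment of type XVIII. *col18a1a* had a mean of 1680.3 normalized counts, its copy *col18a1b* 47.4 and *col15a1b*, known from the path of motor axons along zebrafish muscle, 224. Together *col4a5*, *col18a1a* and *col4a6* stood among the 25% of all genes with most counts, and the other 6 chains of the class did not.

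Among FACIT chains, those of type IX held 76.2% of the counts of the class. Type XII is found in fascia and tendon. Its gene *col12a1a* had a mean of 1268 normalized counts and the copy *col12a1b* 283. Type XIV is a close relative of type XII, and *col14a1b* had 171 and *col14a1a* 87.9. *col16a1* had 309. *col19a1*, also known as *stumpy* from a mutant with misguided motor axons, had 37.2 mean normalized counts and was the lowest of the class.

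The chains of other types were led by *col17a1a* and *col10a1a*. *col17a1a* encodes a membrane-spanning collagen of the hemidesmosome, which ties basal skin cells to their basement membrane, and had a mean of 2229 normalized counts, with 301 for its copy *col17a1b*. *col10a1a*, a short-chain collagen of hypertrophic cartilage and, in fish, of bone-forming cells, had 2058, and its copy *col10a1b* had 19.8. Type VI forms beaded filaments around muscle fibres and other cells. *col6a1* had 1061 and *col6a2* 886 mean normalized counts, with a ratio of 1.2, and *col6a4a* had 457. *col6a3* stood on 2 identifiers, ENSDARG00000077139 with 459.8 and ENSDARG00000095915 with 40.3, and reads of 1 gene may have been split between them by the counting. ENSDARG00000095915 had no symbol among the current Ensembl names. Both rows are counted as chains here, so the 50 chains carry 49 symbols.

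Type VII forms the fibrils that anchor the epidermis to the dermis. *col7a1* had a mean of 106 normalized counts and *col7a1l* 84.7, both under the median of all genes. Type VIII chains, which include the notochord gene *col8a1a*, were low, with 31.7 for *col8a1a*, 18.8 for *col8a1b* and 87.4 for *col8a2*. Of the type XXVIII chains, which carry von Willebrand factor domains, *col28a2a* had 264, *col28a1a* 72.1 and *col28a2b* 18.8 mean normalized counts. Of the 17 chains of other types 9 were at or under the median of all genes, the most of the 4 classes.

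Many zebrafish collagen genes are kept as pairs of copies from the genome duplication of teleost fishes. Pairs were taken here from symbols alike but for a final a or b, and the origin of each pair was not tested. In 12 such pairs both copies had a row under the symbol rule, and copy a had more normalized counts in 11 of them. The exception was *col14a1*, where copy a had 0.514 times the counts of copy b. Genes with a row for a single copy were left out. For *col5a3*, *col15a1* and *col27a1* the copy with a row was copy b, and for *col28a1* it was copy a. Also left out were *col6a4* and *col23a1*, of which at least copy b is named by clone. In these, copy a had more counts as well. Over the 12 pairs the ratio of copy a to copy b had a median of 5.97 and was above 5 in 7 pairs. It was 104 for *col10a1*, 35.4 for *col18a1*, 17.1 for *col5a2* and 14 for *col28a2*. At the other end it was 1.68 for *col8a1*, 2.16 for *col1a1* and 3.87 for *col2a1*. The copies may differ in length, and where they are alike in sequence their reads may have been shared, so these ratios describe counts only.

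**Figure D4:**
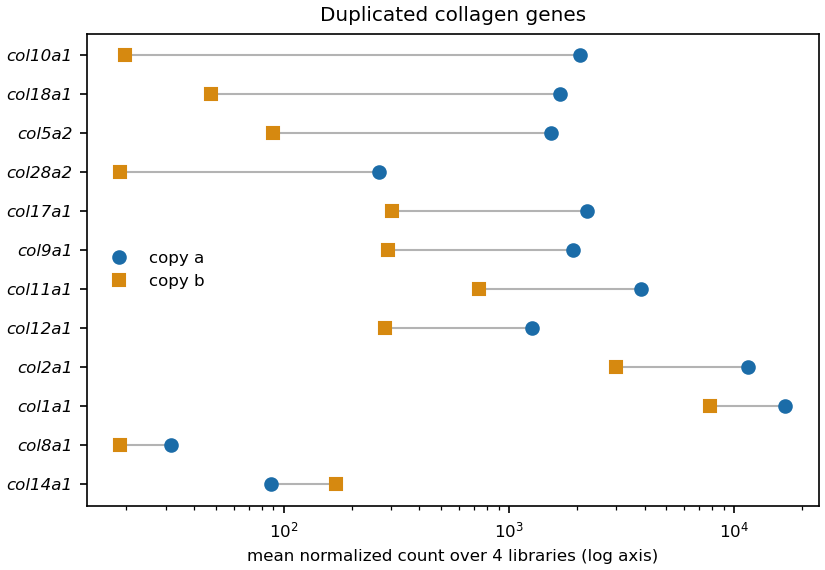
For 12 duplicated collagen genes the mean normalized count over the 4 libraries (log axis) is drawn for copy a (circle) and copy b (square), joined by a line. Copy a is higher in every pair but *col14a1*, and the gap is widest for *col10a1*, at 2058 and 19.8.

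Collagen chains are hydroxylated, folded, exported, trimmed and cross-linked by a set of other proteins. Of 53 genes listed for these steps 43 had a row, with a sum of 0.145% of all counts, a median of 144 mean normalized counts and 24 above the median of all genes. The highest were folding genes of the endoplasmic reticulum. *ppib*, a prolyl isomerase, had 3090.1, *p4hb*, the beta subunit of prolyl 4-hydroxylase, 1283, and *serpinh1b*, the collagen chaperone Hsp47, 831 mean normalized counts. *sec13*, a coat protein of export vesicles, had 578 and *bmp1a*, the procollagen C-proteinase, 539. The lowest were the cross-linking gene *loxl5b* at 13.1, the N-proteinase gene *adamts3* at 15 and *tll1*, a relative of *bmp1a*, at 18.1.

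Of 37 matrix partners of collagens 34 had a row, with a sum of 0.436% of all counts, a median of 368 mean normalized counts and 24 above the median of all genes. *sparc*, a collagen-binding protein, had 8996 mean normalized counts, the fibronectin gene *fn1b* 5081, the periostin gene *postnb* 4893, and the matrilin genes *matn4* and *matn1* 3756 and 3714. The lowest were the laminin gene *lama2* at 20.5, the matrilin gene *matn3b* at 22.5 and the biglycan gene *bgna* at 39.4. Both lists thus reached from genes near the lower end of the table to genes among the 25% with most counts, as the collagen chains did. Among that 25% stood 10 of the 43 processing genes, near the share of all genes. Of the 34 matrix partners 17 stood there, and of the 50 collagen chains 24.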

How the data were processed

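RNA-seq libraries were made with a stranded mRNA kit from 2 pools of *nlrc3l* mutants and 2 pools of siblings. Per the paper's methods, the authors trimmed the reads with Trimmomatic and aligned them with HISAT2. The submitters' processing notes name GRCz10, featureCounts of Subread 1.5.2 and DESeq2 in R 3.3.1. The strand setting of the counting is not given in the sources used here.

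The authors' deposited baseMean was used as a signal, the mean over the 4 libraries of counts divided by size factors. The other columns of the table hold the log2 fold change, standard error, statistic and p-values of the authors' own comparison, and a second table holds the genes past its thresholds. Neither was used. The planned count test was not made, since it needs counts per library and the mean over libraries was the value used. The depth of single libraries and its precision are unknown.

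The collagen rows were found by symbol, sorted into classes by type number, summed, ranked and divided by sums. Chains to be named were planned by counts per kb. Without lengths, the chains of all lists and copies and the highest and lowest of each class were taken by counts. The members and lists were chosen with earlier results of these data known. The summing steps were tested on simulated data. No sequence was printed, as none was used here. Python 3.11.15, pandas 2.3.3, numpy 2.4.6 and matplotlib 3.10.9 were used.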

Additional observations from a re-analysis of the deposited data

How the results depend on the processing

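No paired analysis was possible, because the columns described above hold a mean over the libraries and no values per library. Leaving out a pool, other scaling factors and filters on the counts of single libraries could not be run for the same reason. Counts per kb, exon lengths and the search for uninterrupted triple-helix runs were not run, since no transcript length or sequence was used. A share was taken as moved when it left the 95% Wilson interval of its main value. That interval treated the summed mean normalized counts, rounded, as if they were counted fragments. It is therefore not the counting error of the sequenced fragments, and it covers no spread between pools. Which shares are called moved depends on this choice. With genes at 50 or more mean normalized counts alone, collagens held 0.917% of all counts, against 0.906% for all genes. With basement membrane as type IV only, that class held 4.34% of the collagen counts and the other types 12.8%, and with type VII added to it they held 7.05% and 10.1%. Without the highest chain of each class the shares were 72.1% for fibrillar, 5.93% for basement membrane, 11.1% for FACIT and 10.9% for other types. With the rows named by clone, chosen after seeing the data, the other types held 10.7%. The remaining 9 of 19 alternative values stayed inside their intervals. Among them, the fibrillar and FACIT shares under both other definitions of basement membrane could not change. Those settings only moved chains between the basement membrane class and the other types. The fibrillar class held the most counts in each alternative run for the classes.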

Other observations

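Outside the symbol rule, 4 further rows carry a clone name in the table and a collagen symbol in the current Ensembl names. The row of *col6a4b*, a type VI chain, had a mean of 150.1 normalized counts, that of *col23a1a*, a membrane-spanning collagen, had 60.4 and that of its copy *col23a1b* had 41.8. A second row of *col7a1l* had 20.4. Together they held 0.00313% of all counts. The RefSeq annotation of GRCz12tu lists 60 collagen symbols of the form used here, of which 49 had a row by symbol. The 9 genes *col5a3a*, *col13a1*, *col15a1a*, *col21a1*, *col22a1*, *col25a1*, *col26a1*, *col27a1a* and *col28a1b* were not analysed here.

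Collagen genes of different types also stood close to each other in that annotation. *col9a2* was next to *col16a1* with no protein-coding gene between, at means of 2998 and 309 normalized counts. *col19a1* and *col9a1b* had 1 predicted protein-coding gene between them, at 37.2 and 290.0 mean normalized counts. Within type VI, *col6a2* and *col6a1* had 1 predicted protein-coding gene between them as well, at 886 and 1061. The ceramide transfer protein genes *col4a3bpa* and *col4a3bpb*, which the symbol rule also finds, had 126 and 267 mean normalized counts.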
